A study of Drosophila melanogaster with 3 samples.

Results

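Sp1 occupancy was described at the genes of 10 glycolytic enzymes in the fruit fly Drosophila melanogaster: Hex-A, Pgi, Pfk, Tpi, Gapdh1, Gapdh2, Pgk, Pglym78, Eno and Ldh. They are 10 of the 13945 protein-coding genes on the 6 chromosome arms used, and each symbol matched 1 gene model. For each gene, every peak summit inside the gene body or within 3 kb of it was taken from 5 lists: the optimal set, the pooled list and 3 replicate lists. The genes were chosen on the signals of these same lists, so their counts and signals are given as a description and without tests.

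The samples formed 1 group, named Sp1-GFP. These were whole larvae in the wandering phase of the third instar, males and females pooled and of unknown age, from 1 transgenic line in which green fluorescent protein (GFP) is joined to the C terminus of Sp1. Chromatin was sonicated to 200 to 800 bp, and an antibody to GFP pulled down the fusion with its DNA (ChIP-seq). There were 3 biological replicates, each from its own biosample, and no other genotype, stage or treatment. The promoter that drives the fusion is not stated in these sources. All tissues of the larva were sampled together, so that many weakly bound cells and few strongly bound cells cannot be told apart. Signal is the authors' own value for each peak, from calls made with a control alignment. Its scaling between lists is not stated, so the rank of a peak within its list is given beside it, rank 1 being the strongest. The replicate and pooled lists held 30000 peaks each. The optimal set held 8001 peaks, which are the strongest of the pooled list, with a median pooled signal of 415 and a lowest of 220. Of its summits, 79.3% had a summit within 100 bp in all 3 replicates. Read depth is unknown from these lists.

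Glycolysis splits glucose into pyruvate in a chain of cytosolic steps, and lactate dehydrogenase then regenerates the NAD+ that the chain needs. Larvae of D. melanogaster run it at a high rate while they grow, with strong lactate dehydrogenase activity, under the control of the nuclear receptor ERR. Sp1 is a zinc finger protein of the Sp/KLF family, whose mammalian members bind GC boxes and the related CACCC box.

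The strongest summits at these genes lay in DNA rich in A and T. The sequences around 5 of them are shown, since they carry the highest signals of the genes described. Each is read 5′ to 3′ along the strand of its gene, from the Release 6 genome sequence of RefSeq, whose coordinates are those of dm6. Capitals mark matches, on either strand, to any of 12 short words searched for. In these 5 sequences the only matches were to the TATA word TATAAA, and a sequence without capitals held none. The summit is base 76 of each, and the Eno sequence is shorter because it stops before an annotated exon. Gapdh2 is shown from chrX:15867908-15868058 (plus strand), Eno from chr2L:1727881-1727992 (minus), Hex-A from chrX:9585401-9585551 (plus), Ldh from chr3L:6262815-6262965 (minus) and Pgk from chr2L:2751940-2752090 (minus).
Gapdh2: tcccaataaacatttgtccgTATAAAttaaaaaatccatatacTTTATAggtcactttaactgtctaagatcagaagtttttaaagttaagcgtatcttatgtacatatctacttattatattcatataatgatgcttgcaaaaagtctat
Eno: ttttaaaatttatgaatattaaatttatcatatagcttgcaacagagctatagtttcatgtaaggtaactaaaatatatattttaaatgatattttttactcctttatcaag
Hex-A: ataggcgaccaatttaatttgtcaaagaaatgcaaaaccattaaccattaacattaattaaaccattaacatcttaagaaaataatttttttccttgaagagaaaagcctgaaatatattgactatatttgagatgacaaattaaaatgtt
Ldh: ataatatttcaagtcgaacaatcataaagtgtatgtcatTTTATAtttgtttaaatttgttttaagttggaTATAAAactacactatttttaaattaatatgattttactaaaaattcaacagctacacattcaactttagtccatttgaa
Pgk: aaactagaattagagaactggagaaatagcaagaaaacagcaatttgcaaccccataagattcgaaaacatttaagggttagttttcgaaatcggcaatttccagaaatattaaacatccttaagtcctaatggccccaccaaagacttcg

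Sp1-GFP was found near most of these genes, and at 4 of them with some of the highest signals of the data. An optimal summit lay in the gene body or within 3 kb at 8 of the 10 genes, against 47.8% of all protein-coding genes. It lay within 500 bp of an annotated transcription start site (TSS), here called the promoter, at 7 of 10 (Hex-A, Pgi, Gapdh2, Pgk, Pglym78, Eno and Ldh), against 27.8% of all genes. Among the 200 strongest optimal peaks, a summit at the promoter was held by 4 of 10 (Gapdh2, Eno, Hex-A and Ldh) and by 1.16% of all genes. The lists that chose the genes also gave these counts, so nothing is read from them. Each replicate was also limited to its 8001 strongest peaks. Promoter summits were then found at 8 of 10 genes in replicate 1 against 30.2% of all genes, at 7 in replicate 2 against 29.4%, and at 7 in replicate 3 against 23.7%. Gapdh2, Eno, Hex-A, Ldh and Pgk were among them in every replicate. The count of 8 genes within 3 kb was 5 for sites shared by replicates 2 and 3, that is without replicate 1, against 34.3% of all genes. It was 3 for the gene body alone, against 17.1%.

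**Figure D1:**
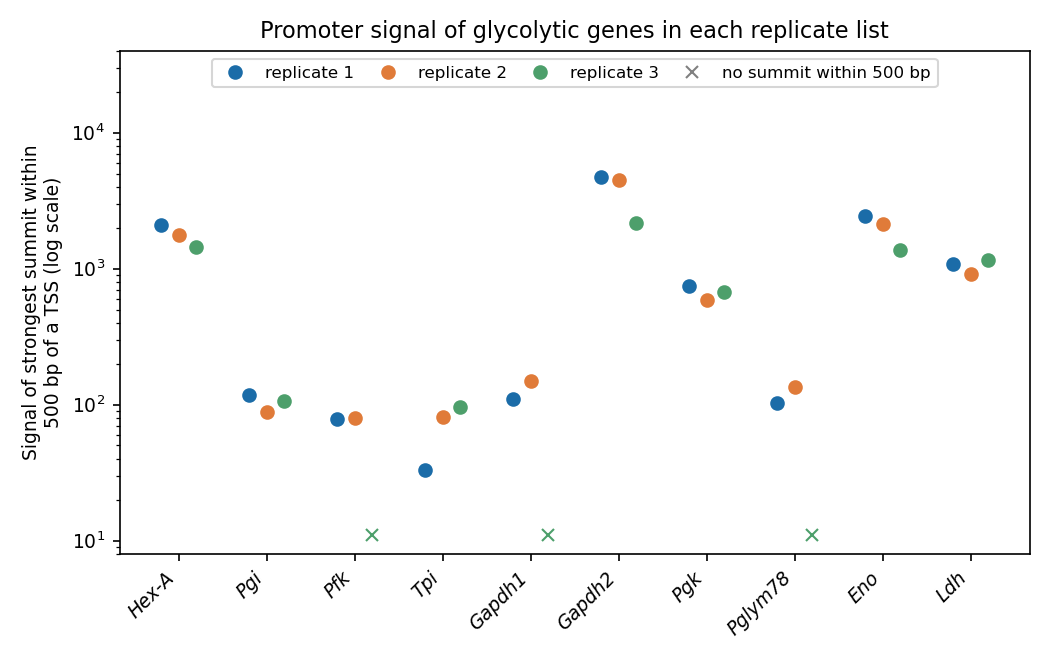
Signal of the strongest summit within 500 bp of a TSS of each gene (log axis), 1 point per replicate list, with genes in the order of the pathway and lactate dehydrogenase last. A cross at the bottom marks a list with no summit there. Gapdh2, Eno, Hex-A, Ldh and Pgk had signals of 591 or more in all 3 replicates, and the other 5 genes had at most 148 or no summit. The points of a gene can be different sites. The replicate 2 point of Pgk (591) lay 12 bp from a Bacc TSS, and at the Pgk site plotted for replicates 1 and 3 it had 466. The replicate 2 point of Pgi lay 6 bp from the TSS of lin.

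The first enzyme, hexokinase, phosphorylates glucose on entry, and Hex-A (FBgn0001186, chrX:9585675-9589813, plus strand) is one of its genes. Its strongest summit lay 199 bp upstream of the first TSS, between genes, in a peak of 1644 bp (chrX:9584199-9585842). The pooled signal was 5277, rank 45. The replicates had signals of 2108 (rank 36), 1758 (rank 34) and 1448 (rank 69), with a mean of 1771 ± 330 (SD, n = 3). All 3 were far above the median of the 8001 strongest peaks of their own list, by 14.2, 11.5 and 9.40 times. Weaker optimal summits flanked the gene. One lay 2569 bp upstream of the TSS with a pooled signal of 780, one 1743 bp upstream with 727, and one 278 bp beyond the gene's end with 542. Each of these was found in all 3 replicates, between 163 and 304.

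Pgi, the isomerase that makes fructose 6-phosphate (FBgn0003074, chr2R:8910900-8914069, minus strand), had 1 optimal summit, close to the foot of the set. It lay 40 bp upstream of the TSS and 415 bp from the TSS of the divergent gene lin, with a pooled signal of 233 and rank 7599. The replicates had 117, 47.0 and 107, a mean of 90.2 ± 37.7 (SD, n = 3). Replicate 2 was the low one, and its stronger promoter summit, 87.7, lay 449 bp upstream and only 6 bp from the TSS of lin.

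Pfk (FBgn0003071, chr2R:10109740-10117457, plus strand) encodes phosphofructokinase, which catalyses the committed step of the pathway. No summit of the optimal or pooled list lay within 3 kb of it. Replicate 1 had 7 summits there and replicate 2 had 10, while replicate 3 had none. At the promoter, replicate 1 had a signal of 78.4 (rank 8488) 162 bp downstream of an internal TSS, and replicate 2 had 80.2 (rank 9148) 107 bp downstream of it. Both are below the 8001 strongest of their list.

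Triosephosphate isomerase interconverts the trioses made by aldolase, and its gene Tpi (FBgn0086355, chr3R:30132981-30134599, minus strand) had no optimal or pooled summit either. The replicates had promoter signals of 32.8, 81.4 and 95.6, at 98 bp upstream, 69 bp downstream and 276 bp upstream of a TSS. The signals were low and the places differed from replicate to replicate. Their ranks were 17924, 9010 and 6498. Only that of replicate 3 was among the 8001 strongest of its list, so Tpi was counted at the promoter for that replicate.

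Glyceraldehyde-3-phosphate dehydrogenase, which makes the NADH of the pathway, has a pair of genes, and these stood far apart in signal. Gapdh2 (FBgn0001092, chrX:15868145-15869661, plus strand) had the second highest signal of the whole optimal set. Its summit lay 162 bp upstream of the TSS, between genes, in a peak of 769 bp (chrX:15867653-15868421), with a pooled signal of 11325. The replicates had 4730 (rank 1), 4469 (rank 1) and 2159 (rank 29), a mean of 3786 ± 1415 (SD, n = 3). Replicates 1 and 2 were close to each other, and replicate 3 lay well below them. Relative to the median of the 8001 strongest peaks of its list, the signal was 31.8, 29.1 and 14.0 times as high. The 3 replicate summits lay 158, 161 and 162 bp upstream of the TSS.

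Gapdh1 (FBgn0001091, chr2R:7791901-7793380, minus strand) had no optimal or pooled summit at its promoter. Replicate 1 had a signal of 110 (rank 5764) 61 bp downstream of a TSS, replicate 2 had 148 (rank 4205) 7 bp upstream, and replicate 3 had none within 3 kb of the gene. The only optimal summit counted for Gapdh1 lay 2719 bp beyond its end and 24 bp from the TSS of CG12825. It had a pooled signal of 254, and 106 in replicate 1. Replicate 2 had its nearest summit 2613 bp beyond the gene, with 156, and replicate 3 had none. None of the 266 stretches of 36 bases within 150 bp of each TSS of both genes, or of the Gapdh2 summit, occurred elsewhere in the genome sequence.

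Pgk makes the first ATP of the payoff phase. Its gene (FBgn0250906, chr2L:2746880-2753068, minus strand) has 5 annotated TSSs and held 9 of the 25 optimal summits counted, the most of any gene described. Several of these 9 shared a peak interval, while the 5 of Eno lay in separate intervals, so by interval Pgk did not hold the most. With 1 summit per interval, the 25 counted were 20. The strongest Pgk summit lay in an intron, 1026 bp upstream of the nearest Pgk TSS, with a pooled signal of 3077 (rank 177). It had 1049, 1000 and 1058 in the replicates, a mean of 1036 ± 31.1 (SD, n = 3), the smallest relative spread of the 18 summits found in all 3 replicates. The gene Bacc starts within Pgk on the other strand, and 1 of its TSSs lay 430 bp from this summit. The strongest summit at a Pgk promoter lay 310 bp upstream of the most internal TSS, with a pooled signal of 1851 and replicate signals of 747, 466 and 672 (mean 628 ± 145, SD, n = 3). The summit 273 bp downstream of the first TSS lay 5 bp from a Bacc TSS. It had a pooled signal of 1187, and 406, 591 and 197 in the replicates. A neighbouring intronic summit, 226 bp from a Bacc TSS, had a pooled signal of 2049, with 315 in replicate 1, 679 in replicate 2 and no summit within 100 bp in replicate 3. Both of these sites lay in the same peak of 1752 bp as the strongest Pgk summit (chr2L:2751687-2753438). The remaining 5 had pooled signals between 260 and 945.

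Pglym78, a phosphoglycerate mutase gene (FBgn0014869, chr3R:29148248-29149901, plus strand), had weak sites. Its promoter summit lay on an annotated TSS and 170 bp from that of CG11882, with a pooled signal of 313 (rank 5598). Replicate 1 had 102, replicate 2 had 134 and replicate 3 had no summit within 100 bp. A summit 1966 bp beyond the gene, 73 bp from the TSS of eIF2D, had a pooled signal of 367 and 119, 126 and 134 in the replicates.

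Enolase makes phosphoenolpyruvate, and its gene Eno (FBgn0000579, chr2L:1724768-1729636, minus strand) carried the site ranked 30 in the optimal set. The summit lay in an intron, 200 bp upstream of the most internal of 3 TSSs, from which 2 of the 6 annotated transcripts start (peak chr2L:1727508-1728332). Its pooled signal was 5952. The replicates had 2440 (rank 21), 2142 (rank 15) and 1370 (rank 81), a mean of 1984 ± 552 (SD, n = 3), so that replicate 3 was again the lowest. At the first TSS of Eno the signal was much lower: 538 pooled and 199, 210 and 130 in the replicates, at a summit 100 bp upstream that also lay 151 bp from the TSS of CG31937. The other 3 summits counted for Eno had pooled signals between 220 and 440 and lay at or in neighbouring genes. That with 440 was 7 bp from a TSS of Rim2, that with 220 was 50 bp from a TSS of CG31937, and that with 232 was inside CG17652. For each of these 3 summits 1 replicate had no summit within 100 bp, though it had one farther off. Replicate 3 had 74.3 and 130 near 2 of them, and replicate 2 had 97.8 near the third. The 130 is the peak already given for the first TSS, and the 97.8 lay nearer another pooled summit. At the weakest of the 3, with 220 pooled, replicate 1 had only 16.4 (rank 28592).

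Ldh (FBgn0001258, chr3L:6259105-6262694, minus strand) encodes lactate dehydrogenase. Its promoter summit lay 196 bp upstream of the first TSS (peak chr3L:6262531-6263174), with a pooled signal of 3132, rank 167. The replicates had 1086, 911 and 1153, a mean of 1050 ± 125 (SD, n = 3), and replicate 3 was here the highest. A second site of nearly the same signal lay 2182 bp beyond the gene. It had a pooled signal of 2963 (rank 195) and 1093, 1113 and 771 in the replicates (mean 992 ± 192, SD, n = 3). That summit lay 258 bp from the TSS of Best2, so the nearer promoter is not that of Ldh.

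**Figure D2:**
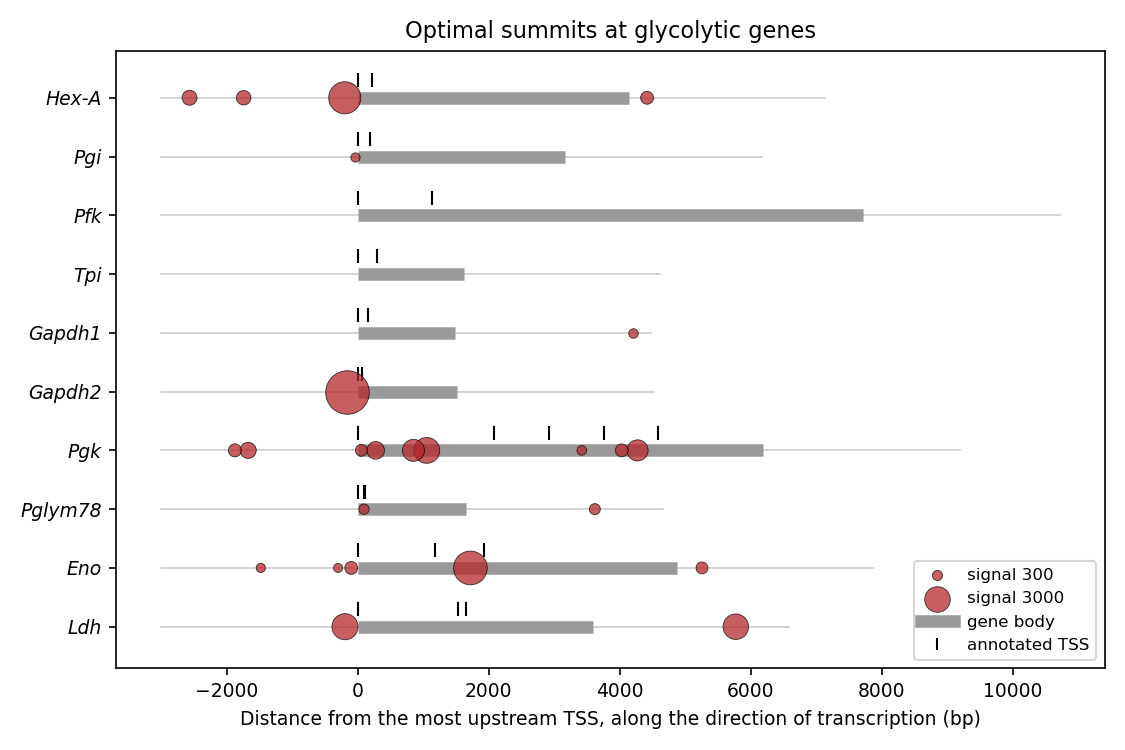
Optimal summits at each gene (circles, area growing with pooled signal) along the direction of transcription, with distance from the most upstream TSS in bp on the horizontal axis. Grey bars are gene bodies, thin lines reach 3 kb beyond them and ticks mark annotated TSSs. Gapdh2 had 1 large summit just upstream of its TSS, and Eno had its large summit before an internal TSS. Pgk held 9 summits, several of them in shared peaks, and Pfk and Tpi had none.

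The strongest site of each gene kept nearly the same order in the replicates, when each of the 7 genes with a value in every replicate was represented by its highest optimal summit. For Pglym78 that is the summit near eIF2D, and for Pgk the intronic one near Bacc. Gapdh2 came first in all 3, Pglym78 sixth and Pgi seventh. Eno came before Hex-A in replicates 1 and 2 and after it in replicate 3, and Ldh came before Pgk in replicates 1 and 3 and after it in replicate 2. Taken across lists, whose scaling is not stated, the replicate signals of Gapdh2 and Eno overlapped, as did those of Eno and Hex-A and those of Ldh and Pgk. The replicate signals of Hex-A and Ldh did not overlap, nor did those of Pgk and Pglym78. Within each list Gapdh2 was above Eno. The coefficient of variation over the replicates was 37.4% for Gapdh2, 27.8% for Eno, 18.6% for Hex-A, 11.9% for Ldh and 3.00% for Pgk, against a median of 25.1% over the optimal summits found in all 3 replicates. Of the 25 optimal summits counted, 18 were found in all 3 replicates, 6 in 2 and 1 in 1.

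**Figure D3:**
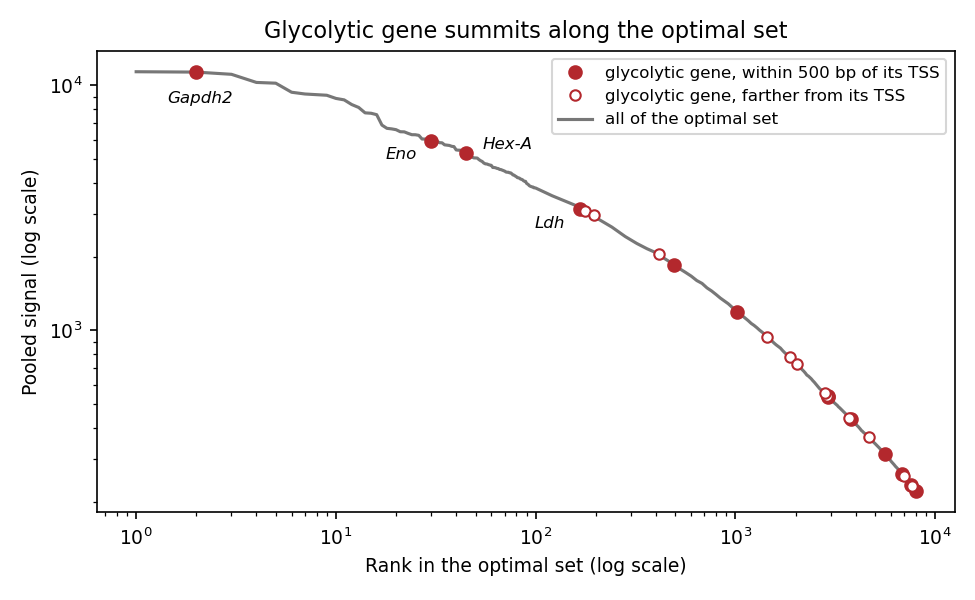
Pooled signal of the 25 optimal summits at the glycolytic genes against their rank in the optimal set (both axes log). Filled circles lie within 500 bp of a TSS of the gene, open circles farther away, and the line is the whole set. Gapdh2 lay at rank 2, Eno at 30, Hex-A at 45 and Ldh at 167, and the weakest summits reached the foot of the set.

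The 4 promoter summits among the 200 strongest lay at like distances from their TSS, at 162 bp (Gapdh2), 196 bp (Ldh), 199 bp (Hex-A) and 200 bp (Eno) upstream. The band from 150 to 250 bp upstream held 4 of the 13 optimal summits at promoters of the glycolytic genes and 15.6% of all 3559 optimal promoter summits. Among the 122 promoter summits of the 200 strongest optimal peaks, which include these 4, it held 34.4%. The median offset was -162 bp at the glycolytic genes, -148.5 bp among the 200 strongest and -69 bp among all. These medians are unlike measures. Glycolytic summits were measured from the nearest TSS of their own gene, the others from the nearest TSS of any protein-coding gene. A Pgk summit at 273 bp, for instance, lay 5 bp from a Bacc TSS, and an Eno summit at -301 bp lay 50 bp from a CG31937 TSS. The weaker glycolytic promoter summits lay between 336 bp upstream and 275 bp downstream of a TSS of their gene. The band and the limit of 200 peaks were chosen after these values were seen, so the shares are a description.

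**Figure D4:**
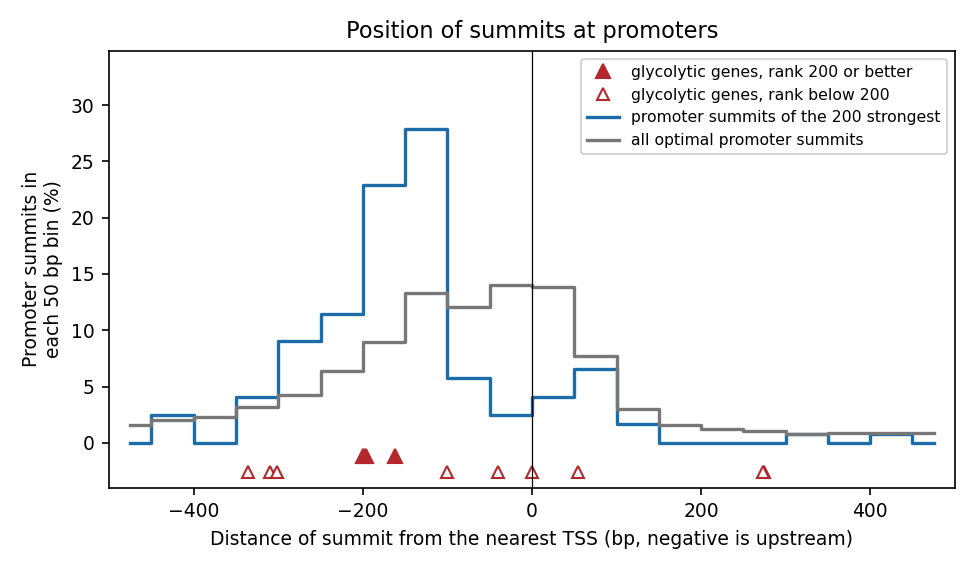
Distance of promoter summits from the nearest TSS (bp, negative upstream) against the share of promoter summits in each 50 bp bin. Distances are from a TSS of the glycolytic gene itself for triangles, and of any protein-coding gene for lines. Triangles are glycolytic summits, filled for ranks up to 200, the blue line the promoter summits of the 200 strongest optimal peaks and the grey line all optimal promoter summits. The filled triangles lay 162 to 200 bp upstream, where the blue line is high.

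Of the 25 optimal summits, 9 lay in the body of the glycolytic gene itself, 11 upstream and 5 downstream of it, and none lay in a coding exon. Several of those upstream or downstream lay inside a neighbouring gene, namely Bacc, Rim2, Rrp40, CG31937 or CG17652. Counting TSSs of protein-coding genes only, that of the glycolytic gene alone lay within 500 bp of 7 of the 25 summits. A TSS of it and of another gene lay within 500 bp of 6, and a TSS of another gene alone of 6. The other 6 had no such TSS within 500 bp, and TSSs of noncoding genes were not considered. The sites ranked up to 45 belonged to the first kind. Just inside the limit of 3 kb lay the summit 2719 bp from Gapdh1 (254) and that 2569 bp from Hex-A (780). Just outside it, summits 3482 bp from Pgi (408), 3540 bp from Pglym78 (470) and 3868 bp from Ldh (268) were not counted.

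The G+C content within 100 bp of the summit was low at most of the strong sites: 22.4% at the Ldh promoter, 25.9% at Hex-A, 29.4% at Gapdh2, 31.3% at Eno and 37.8% at Pgk. Its median was 34.8% over the 25 summits, 35.8% over the optimal set and 31.3% over the 200 strongest. The GC box word GGGCGG was found within 100 bp of none of the 25 summits, against 4.30% of optimal summits and 4.68% of all TSSs. The CACCC box word CCACCC was found at 1, a weak summit in Pgk, against 5.87% and 5.62%. The word AAGGTCA, bound by ERR, was found at none, against 1.31% and 1.24%. The word ACGTG, the core of hypoxia response elements, was found at 3 of 25 (12.0%), Gapdh2 among them, against 14.3% and 18.3%. TATAAA was found at 7 of 25 (28%), against 34.1% of optimal summits and 26.8% of TSSs. It stood at the strongest summits of Gapdh2 and Ldh, with 2 matches each in the sequences shown, and at those of neither Eno nor Hex-A. AGATAA was found at 6 (24.0%), against 13.8% and 10.6%, and GAGAGA at 2 (8.0%), against 11.8% and 9.75%. The word CACACACA was found at 2, against 5.70% and 4.01%. No summit of the 25 held the E box word CACGTG (1.94% and 2.79%), the AP-1 word TGANTCA (4.79% and 3.74%), the DRE core (2.77% and 6.43%) or the M1BP word (1.89% and 4.43%). These counts moved with the width of the window. Within 250 bp they were 2 for GGGCGG, 4 for CCACCC, 7 for GAGAGA, 10 for ACGTG, 2 for TGANTCA, 13 for TATAAA and 11 for AGATAA. Within 50 bp they were 0 for CCACCC, 1 for GAGAGA, 3 for AGATAA and 1 for CACACACA. The ERR word, the E box word, the DRE core and the M1BP word were found at none at either width. Shares over all optimal summits or TSSs were taken at 100 bp only. The counts within 250 and 50 bp therefore have no background beside them, and nothing is read from them. These are matches of letters on either strand and say nothing of which protein was bound.

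By rank in the 3 replicates, the promoter sites most like that of Gapdh2 were those of CG18549 (ranks 8, 4 and 9) and the pair CG11309 and CG7632 (ranks 6, 8 and 10, a mean absolute difference of 10.3 ranks). For Eno they were the site shared by Pal1 and Pdrg1 (14.7) and that of Hex-A (15.3). For Hex-A they were CG43389 (9.67) and the site of Pal1 and Pdrg1 (11.3). The comparison ran over 2614 promoter summits and 3 replicates.

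Genes around the pathway had promoter summits as well. Lists of 67 genes gave 64 gene models, of which 30 (46.9%) had an optimal summit at the promoter, against the 27.8% of all genes. For these lists, a gene said to have no summit lacked an optimal one at its promoter. Among 12 other glycolytic enzyme genes there were 2: PyK, pyruvate kinase, with a pooled signal of 507 and 146 ± 56.7 in the replicates (SD, n = 3), and Ald1, an aldolase, with 365. Ald2 and CG11249 were among the 10 without one. Of 6 genes of the glycerol phosphate shuttle, which also regenerates NAD+, Gpdh1 alone had a summit (494), and Gpdh2 and Gpdh3 had none. Of 5 gluconeogenesis genes 3 had one: fbp, fructose-1,6-bisphosphatase (957, 312 ± 81.4, SD, n = 3), Pfrx (326) and Pepck2 (235), while G6P and Pepck1 had none. Within 200 bp of a TSS the count was 1, Pfrx, since the summits of fbp and Pepck2 lay farther upstream.

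Storage sugars and the pentose phosphate branch held the strongest sites of these lists. Of 10 glycogen and trehalose genes 6 had a promoter summit. Glyp, glycogen phosphorylase, had the highest of all the lists, at 181 bp upstream of its TSS, with a pooled signal of 3687 (rank 108) and 1413, 1259 and 1038 in the replicates (mean 1237 ± 188, SD, n = 3). Its replicate signals lay between those of Hex-A and Ldh in replicates 1 and 2, and below that of Ldh in replicate 3. Pgm1, phosphoglucomutase, had 1398 and Treh, trehalase, 601, while AGBE and Glys had none. Of 7 pentose phosphate genes 5 had one, led by CG8036, a transketolase (2579, 862 ± 164, SD, n = 3), Zw, glucose-6-phosphate dehydrogenase (427), and Taldo, transaldolase (391), while Rpe and Rpi had none. Within 200 bp of a TSS the count was 3, and CG8036 was not among them.

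Of 8 sugar transporter genes 2 had a promoter summit, sut1 (345) and MFS3 (337), and Glut1 and Tret1-1 had none. Of 6 genes for the entry of pyruvate into mitochondria 3 had one: Pdp (685) and Pdk (444), the phosphatase and the kinase of pyruvate dehydrogenase, and its subunit Pdhb (682). Mpc1, a subunit of the pyruvate carrier, and Pdha had none. Of 10 regulators of glycolytic genes 8 had one, the highest being ERR (1113, 374 ± 99.3, SD, n = 3), bigmax (748) and Max (707), and Mondo and tgo had none. Several of these summits also lay within 500 bp of a TSS of another gene: ERR with Atg18a, bigmax with Hmu, Max with CG42374 and Mettl5, Pdhb with alpha-Man-Ib, Pdp with Rab39, Taldo with CG3735, sut1 with slv, and Gpdh1 with Sfp26Ad. Some genes of the lists named as without an optimal promoter summit had a weaker pooled one there. They were Mpc1 (211), Rpi (204), Pepck1 (203), Glut1 (161), Glys (89.2), Tret1-1 (78.2) and Mondo (60.5).

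**Figure D5:**
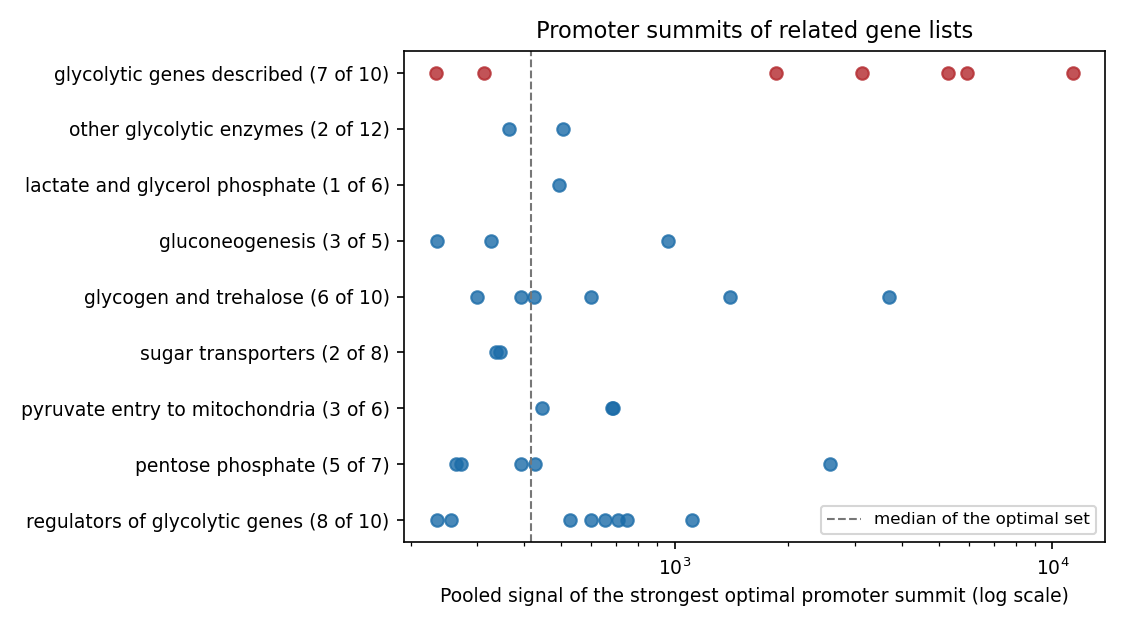
Pooled signal of the strongest optimal promoter summit (log axis), 1 point per gene that has one, for the glycolytic genes described and for 8 lists of related genes. The numbers after each name give the genes with such a summit of those matched, and the dashed line is the median of the optimal set (415). Of all the genes shown, the 4 highest points belong to Gapdh2, Eno, Hex-A and Glyp.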

How the data were processed

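Sp1-GFP ChIP-seq peaks from 3 biological replicates were used in narrowPeak format, as deposited by the authors. The signal of a peak is the authors' own value per the deposited files. Per the files deposited with the lists, a replicate was called on its own alignment and a control, the pool on all 3 alignments and that control, and the optimal set was drawn from the 4 lists by the irreproducible discovery rate. Coordinates are in dm6 (labels). For the aligner and the caller, nothing was given in the sources used here. Columns of −log10 q and of constant score and p were left out.

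Gene models came from Ensembl release 115 (BDGP6, FlyBase 6.54), with 13945 protein-coding genes and 19607 TSSs. A replicate's signal at a summit was that of its strongest peak within 100 bp. The window for words was 100 bp to each side, on both strands. Means ± SD are over replicates, which are separate biosamples of 1 line. With 1 group there was no test between conditions. The genes, lists, words and rules were chosen with earlier results of these data known. The text names all 10 genes. Of each list it names the 3 genes with the highest promoter signal and up to 2 without an optimal promoter summit, first by symbol. Of the listed symbols, Pcb, Glycogenin and Mpc2 matched no model and were not analysed here. Likeness was the mean absolute difference of ranks over the replicates. Alternatives changed distances, peak sets and windows, and left out each replicate in turn by using the sites shared by the 8001 strongest peaks of the other 2. Counting was tested on simulated data. Python 3.11.15, numpy 2.4.6, pandas 2.3.3 and matplotlib 3.10.9 were used.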

Additional observations from a re-analysis of the deposited data

How the results depend on the processing

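The promoter count of 7 genes stayed within 1.5 times of itself in every alternative run. These were distances of 200 to 3000 bp, the strongest 4001 optimal peaks, the pooled list, each replicate's 8001 strongest peaks, and leaving out each replicate, which gave 5 to 7. Over all genes the share ran from 16.4% (strongest 4001 optimal peaks) to 42.6% (pooled list). The genes counted also changed. The 7 of replicate 2 included Gapdh1 and not Pgi, and the 7 of replicate 3 included Tpi and not Pglym78. The count of 8 genes within 3 kb was 3 for the gene body alone (against 17.1% of all genes) and 5 with the strongest 4001 optimal peaks (34.0%). Leaving out a replicate gave 5 to 8, the 5 being without replicate 1 (34.3% of all genes). The 25 summits were 9 in the bodies of the glycolytic genes alone, and 20 with 1 summit per peak interval. Of the 12 word counts, 7 moved by over 1.5 times within 250 bp and 4 within 50 bp. The gluconeogenesis and pentose phosphate counts fell to 1 and 3 with promoters of 200 bp, against 3 and 5. With replicate summits sought within 50 bp, the site near eIF2D was left with 1 replicate (134). Eno, Gapdh2, Hex-A, Ldh and Pgk were counted in every peak set run, at both the 3 kb and the 500 bp distance. The lists hold no read counts, so counting error could not be given, and the signal of a site missing from a replicate is unknown rather than 0.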

Other observations

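Some sites shared by replicates 1 and 2 were missing from the pooled list. Of 25 summits near the glycolytic genes that were within 100 bp of each other among the 8001 strongest peaks of both replicates, 3 (12.0%) had no pooled summit within 250 bp, against 151 of 5676 (2.66%) over the genome. They were the Gapdh1 promoter (110 in replicate 1 and 148 in replicate 2), a site 250 bp beyond Pfk at the promoter of dmpd (87.3 and 115), and a site 1311 bp beyond Gapdh2 in an intron of CG16952 (192 and 198, ranks 2849 and 2705). Replicate 3 had no summit within 3 kb of Gapdh1 or Pfk, and near Gapdh2 its only one was the promoter summit. Of sites shared by replicates 1 and 3, 0 of 16 near these genes lacked a pooled summit, against 1.11% over the genome, and of those shared by replicates 2 and 3, 0 of 14, against 0.744%. The distance of 250 bp was chosen after seeing the data, and the cause was not tested.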
